A study of Mus musculus with 12 samples.

Results

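Aminoacyl-tRNA synthetases join each amino acid to its transfer RNA. The set described here comprises the 40 protein-coding genes among 37583 counted genes whose symbol matched the naming pattern of these enzymes or was Aimp1 or Aimp2. It holds 21 enzymes of the cytosol, 17 enzymes of the mitochondrion (symbols ending in ars2) and 2 scaffold proteins of the multi-synthetase complex, Aimp1 and Aimp2. Kars and Gars each supply both compartments and are counted with the cytosol. Membership rested on gene names and not on measured values.

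RNA was sequenced from 12 clones of conditionally immortalized granulocyte-monocyte progenitors, the precursors of neutrophils and monocytes. All clones derived from C57BL/6 mouse fetal liver at embryonic day 15.5 and all carried retroviral ER-Hoxb8, an estrogen receptor-Hoxb8 fusion that holds progenitors in an immature, dividing state while estradiol is present. All were grown in about 50 ng/ml stem cell factor, 10% serum and 0.5 µM estradiol. There were 6 wildtype clones, with titles ending in 1A, 1B, 1C, 2D, 2E or 2F. The 6 Taz knockout clones had titles ending in 3G, 3H, 3I, 4J, 4K or 4L. Each clone was grown from a single cell. Taz encodes tafazzin, which remodels the mitochondrial phospholipid cardiolipin. How the knockout was made is not given in the sources used here. The number in a clone's title (1 or 2 in wildtype, 3 or 4 in knockout) is not explained. Clones that share it may share an embryo or a parent line, and the p-values measure the spread between these clones. In bulk RNA, a change in the share of a cell type and a change in RNA per cell cannot be told apart.

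Cytosolic synthetases charge the tRNAs read by ribosomes of the cytosol, and a separate nuclear-encoded set charges those used on mitochondrial ribosomes. Several cytosolic enzymes sit in the multi-synthetase complex around scaffold proteins, and the others work free of it. Uncharged tRNA activates the kinase GCN2, which phosphorylates eIF2α and raises translation of the transcription factor ATF4. Many cytosolic synthetase genes are textbook targets of ATF4 or of its partner CHOP (the product of Ddit3), which bind composite elements in promoters.

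The sequence searched for was the composite element TGATGNAA, which reads TTNCATCA on the other strand. RefSeq promoter windows of GRCm38.p6, 250 bases before to 50 bases after each start site, were matched for 29 of the 40 genes. Among those without a match were Cars, Nars, Wars, Lars, Mars, Rars, Pars2, Vars, Hars and Hars2. The element was present in 5 genes, Gars, Aars, Yars, Tars and Iars. All 5 were called higher in the knockout, and the windows of 4 are shown as examples of where the element lay, with the 8 matching bases in capitals and the gene's own strand written 5′ to 3′. The Gars window is chr6:55037941-55038008 on the plus strand, with the element starting 30 bases before the start site. The Aars windows are chr8:111033700-111033767 and chr8:111033821-111033871 on the plus strand, with elements starting 112 bases before and 9 bases after it. The Tars window is chr15:11399636-11399703 on the minus strand, with the element starting 15 bases before it. The Yars window is chr4:129189876-129189932 on the plus strand, with the element starting 3 bases after it.
Gars: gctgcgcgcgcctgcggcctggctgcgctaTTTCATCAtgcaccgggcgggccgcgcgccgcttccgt
Aars, upstream element: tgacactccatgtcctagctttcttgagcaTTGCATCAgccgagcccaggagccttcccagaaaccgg
Aars, element past the start: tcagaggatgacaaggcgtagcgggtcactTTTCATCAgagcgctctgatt
Tars: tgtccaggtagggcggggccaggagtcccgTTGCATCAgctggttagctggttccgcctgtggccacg
Yars: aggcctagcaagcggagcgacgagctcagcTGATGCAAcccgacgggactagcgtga

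Read on the gene's own strand, the element lay in the reverse direction in Gars, Aars and Tars and in the forward direction in Yars. Among the genes with a promoter window, 5 of the 7 that were higher in the knockout held it. It was found in 0 of 6 cytosolic enzymes that were not called, in 0 of 14 mitochondrial enzymes and in 0 of 2 scaffolds. Over all 32851 promoter windows of the table, 1304 (3.97%) held it. Sars and Eprs, both higher in the knockout, had no match within their windows. These are matches of letters, and binding was not measured.

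Taz itself was checked first. It ranged from 37.1 to 43.9 CPM (counts scaled to library size, with TMM factors) in wildtype and from 2.21 to 4.08 CPM in knockout, a log2 fold change of -3.54 (edgeR adjusted p = 5.68e-08). Wildtype libraries held 21966954 to 27431544 counts in genes and knockout libraries 18970252 to 23658158. All 7 progenitor markers (among them Mpo, Elane and Kit) were measured and 0 were called between genotypes. Their summed level was 12453 to 21573 CPM in wildtype and 11451 to 19252 CPM in knockout. Mature neutrophil genes summed to 1446 CPM in wildtype clone 2D, against 7.79 to 96.9 CPM in the other wildtype clones and 12.1 to 133 CPM in knockout. Lymphoid genes were also highest in 2D, at 62.2 CPM, against 4.11 to 23.8 CPM in the other wildtype clones. In knockout they summed to 1.19 to 2.31 CPM, below every wildtype clone. The 4 fetal hepatocyte genes summed to 141 CPM in knockout clone 3G and to at most 1.95 CPM in the other knockout clones and 0.842 CPM in wildtype. Erythroid genes were highest in 1A (67.6 CPM, against at most 13.3 CPM in the other wildtype clones and 14.2 CPM in knockout). Mast cell genes summed to 941 to 3639 CPM in wildtype and 1969 to 4599.5 CPM in knockout, megakaryocyte genes to 117 to 332 and 139 to 285 CPM, and macrophage genes to 20.4 to 56.3 and 29.4 to 62.5 CPM. Between genotypes, 1 of 6 tested neutrophil, 2 of 2 lymphoid and 1 of 3 megakaryocyte genes were called. For mast cell, erythroid and macrophage genes the counts were 0 of 2, 0 of 3 and 0 of 3, and 0 hepatocyte genes passed the filter. Over all tested genes, 7.94% were called in either direction. The part of these markers in the synthetase values was not tested, other than by leaving out 1 clone at a time or 2D and 3G together. Synthetase results are given with and without 2D and 3G.

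In total, 11 cytosolic synthetase genes were higher in the Taz knockout clones, and no mitochondrial synthetase with a symbol ending in ars2 was. Gars, which supplies both compartments, was among the 11. The rises were modest, from 1.23-fold in Iars to 1.58-fold in Sars. Genes were called at an adjusted p under 0.05 in edgeR's quasi-likelihood test over the 11819 genes that passed a filter on low counts, and all 40 genes of the set passed that filter. Of the 21 cytosolic enzymes, 11 (52.4%) were called higher and 0 lower, against 3.99% of all tested genes called higher and 3.94% called lower. Their median log2 fold change was 0.30, against -0.0066 over all tested genes. Of the 17 mitochondrial enzymes, 0 were called higher and 1 lower, with a median of -0.019. Unadjusted p-values under 0.05 were found for 3 mitochondrial enzymes (17.6%), all lower in the knockout, against 23.7% of all tested genes in either direction. DESeq2 also called 0 higher and 1 lower, against 6.11% and 6.34% of all genes it tested. Both scaffold genes were uncalled. Together 12 of 40 genes were called, against 7.94% of all tested genes in either direction.

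**Figure D1:**
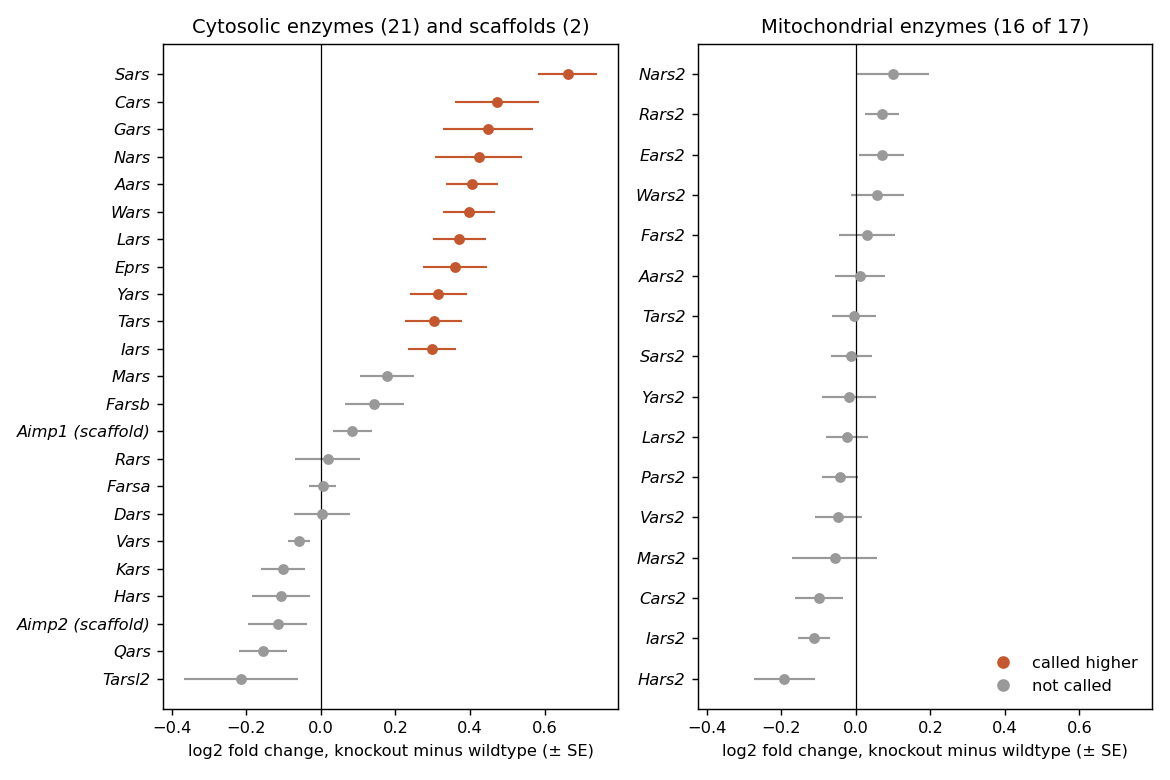
Log2 fold change (knockout minus wildtype, with its standard error) of 39 of the 40 genes, from edgeR over 6 wildtype and 6 knockout clones. The 11 called cytosolic genes lie between 0.30 and 0.66, and the 16 mitochondrial genes shown lie between -0.19 and 0.10.

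Sars (ENSMUSG00000068739) charges serine tRNA, and also the tRNA on which selenocysteine is made. It ranged from 160.4 to 219 CPM in wildtype clones (median 176) and from 264 to 339 CPM in knockout clones (median 282). Every knockout clone lay above every wildtype clone. The log2 fold change was 0.66 ± 0.079 (SE; edgeR adjusted p = 0.000646), the largest of the set. Aars (ENSMUSG00000031960), the alanyl-tRNA synthetase, ranged from 320.3 to 435 CPM in wildtype (median 369) and from 446 to 531 CPM in knockout (median 489.9). Its clones likewise did not overlap between genotypes, with a log2 fold change of 0.41 ± 0.070 (adjusted p = 0.00576). Wars (ENSMUSG00000021266), the tryptophanyl-tRNA synthetase, which is also an interferon-induced gene, ranged from 141 to 184 CPM in wildtype (median 153). In knockout it ranged from 187 to 224 CPM (median 201), a log2 fold change of 0.40 ± 0.069 (adjusted p = 0.00603). With counts summed by title number, Sars was not called (log2 fold change 0.67, adjusted p = 0.0529). Sars, Aars and Wars were the 3 genes of the set without overlap between genotypes. Over all tested genes, 2.54% had every knockout clone above every wildtype clone and 2.84% had every one below.

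The other 5 called enzymes that work outside the multi-synthetase complex were Cars, Gars, Nars, Yars and Tars. Cars (ENSMUSG00000010755), which charges cysteine, ranged from 76.8 to 131 CPM in wildtype (median 95.8) and from 122 to 151 CPM in knockout (median 138). Its log2 fold change was 0.47 ± 0.11 (edgeR adjusted p = 0.0251). Gars (ENSMUSG00000029777), which charges glycine tRNA in both compartments, ranged from 334 to 581 CPM in wildtype (median 409) and from 503 to 629 CPM in knockout (median 601). The value of 581 CPM was that of clone 2D, and the next wildtype clone, 1A, had 477 CPM. The log2 fold change was 0.45 ± 0.12 (adjusted p = 0.0427). Nars (ENSMUSG00000024587), the asparaginyl-tRNA synthetase, ranged from 404 to 690.4 CPM in wildtype (median 502) and from 594 to 737 CPM in knockout (median 697). Clone 2D again reached the knockout range, and the log2 fold change was 0.42 ± 0.12 (adjusted p = 0.0466).

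Yars (ENSMUSG00000028811), which charges tyrosine, was tightly grouped in the knockout, from 232 to 249 CPM (median 245). In wildtype it ranged from 167 to 245 CPM (median 191), and only 2D lay within the knockout range. Its log2 fold change was 0.32 ± 0.076 (edgeR adjusted p = 0.0276). Tars (ENSMUSG00000022241), the threonyl-tRNA synthetase, ranged from 207 to 277 CPM in wildtype (median 223) and from 263 to 306 CPM in knockout (median 292). Here 1A, at 267 CPM, as well as 2D lay above the lowest knockout clone, and the log2 fold change was 0.30 ± 0.077 (adjusted p = 0.0343). Of the 13 free cytosolic enzymes, 8 were called higher, with a median log2 fold change of 0.32. The 5 that were not called were Farsa and Farsb (the α and β subunits of the phenylalanyl enzyme), Hars, Vars and Tarsl2, a second threonyl-type enzyme.

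In the multi-synthetase complex, 3 of 8 enzymes were called higher, with a median log2 fold change of 0.098 over the 8. Eprs (ENSMUSG00000026615) joins the glutamyl and prolyl enzymes in a single chain. It ranged from 469.5 to 687 CPM in wildtype (median 535) and from 626 to 751 CPM in knockout (median 716), a log2 fold change of 0.36 ± 0.086 (edgeR adjusted p = 0.0263). Lars (ENSMUSG00000024493), the leucyl enzyme, which also takes part in leucine sensing upstream of mTORC1, ranged from 318 to 429 CPM in wildtype (median 359.9) and from 426 to 509.7 CPM in knockout (median 473). Its log2 fold change was 0.37 ± 0.070 (adjusted p = 0.00908), and the overlap between genotypes was confined to 2D (429 CPM) and 4K (426 CPM). Iars (ENSMUSG00000037851), the isoleucyl enzyme, ranged from 328 to 434 CPM in wildtype (median 377) and from 430.3 to 488 CPM in knockout (median 463). Its log2 fold change of 0.30 ± 0.065 (adjusted p = 0.0179) was the smallest among the called rises.

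The other 5 enzymes of the complex were uncalled. Mars, which charges both initiator and elongator methionine tRNA, ranged from 238 to 332 CPM in wildtype (median 259.7) and from 285 to 323 CPM in knockout (median 312), with a log2 fold change of 0.18 ± 0.072 (edgeR adjusted p = 0.160). Its exons overlap those of Ddit3 on the opposite strand, reads were counted without strand, and Ddit3 had a log2 fold change of 1.35. The part of this overlap in the Mars value was not tested. For Qars, the glutaminyl enzyme, the log2 fold change was -0.16 (adjusted p = 0.166). The lysyl enzyme Kars had -0.10, the arginyl enzyme Rars 0.019 and the aspartyl enzyme Dars 0.0029. The scaffold Aimp1 ranged from 88.9 to 108 CPM in wildtype and from 93.9 to 107 CPM in knockout (log2 fold change 0.084). Aimp2 ranged from 28.8 to 37.8 CPM in wildtype and from 26.7 to 32.5 CPM in knockout (log2 fold change -0.12). For both scaffolds the ranges of the genotypes overlapped. Of the 40 genes, 15 share exon bases with another counted gene on the opposite strand, among them the called genes Aars, Cars and Yars. The part of such overlaps in their values was not tested.

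A division of the cytosolic enzymes by the 2 structural classes of catalytic fold did not separate the called genes. Of 9 class I enzymes 5 were called higher, and of 11 class II enzymes 5 were called higher; Eprs holds an enzyme of each class and was counted in neither. A division by textbook ATF4 or CHOP targets was different in its counts. Of 12 such genes 11 were called higher, all but Mars, with a median log2 fold change of 0.38. Of the 9 cytosolic genes outside that list edgeR and DESeq2 called 0. The unadjusted p was under 0.05 for 1 of them (Qars, lower), and their median was -0.060. The list was drawn up with earlier results of these data known. Its count is therefore not independent evidence of direction, and neither is its contrast with the genes outside it or with the division by class.

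**Figure D2:**
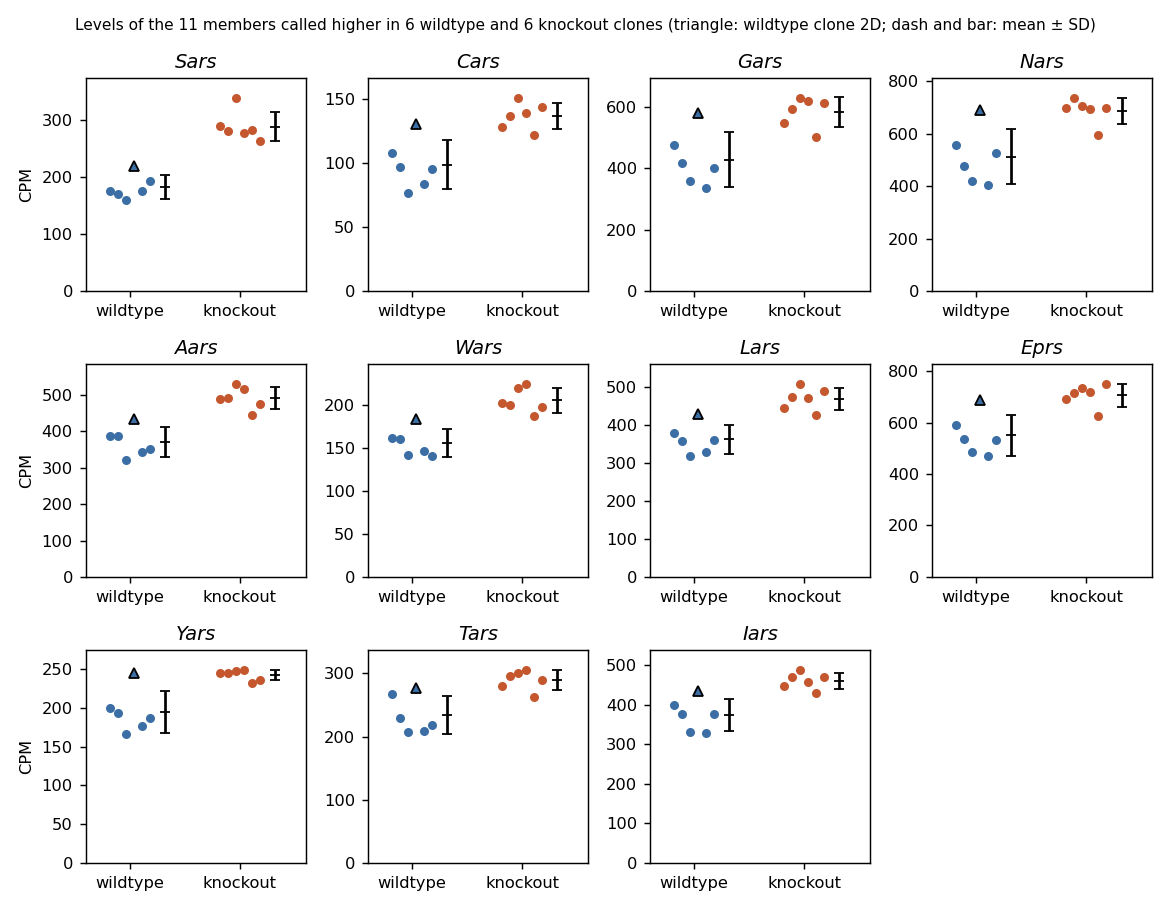
CPM of the 11 genes called higher in each clone, with wildtype in blue and knockout in orange; the triangle is wildtype clone 2D and the dash with its bar is the mean ± SD of 6 clones. Clone 2D is the highest wildtype clone for all 11 genes that were higher in the knockout, and in Sars, Aars and Wars it still lies below every knockout clone.

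The clones of each genotype kept much the same order across the called genes. Among the 11 called cytosolic genes, 2D was the highest wildtype clone in 11 and 1A the second highest in 10, and 1C or 2E was the lowest in 10. In the knockout, 4K was the lowest clone in 10 of the 11 and 3I the highest in 6. Over all 21 cytosolic genes, 2D or 1A was the highest wildtype clone in every case. Among the 10 uncalled cytosolic genes the knockout order did not hold, with 4K lowest in 3 and 3I highest in 0. Among the 17 mitochondrial genes 4K was again often the lowest knockout clone, in 10, and 3I was the highest in 3. How often 4K was lowest over all tested genes was not counted, so this order is not particular to the called genes. The summed level of the 11 called genes was 2983 to 4312 CPM in wildtype, with 1C lowest and 2D highest, and 4111 to 4856 CPM in knockout, with 4K lowest and 3I highest. The 17 mitochondrial genes summed to 913 to 1028 CPM in wildtype and 864 to 981 CPM in knockout. They too were highest in 2D in wildtype and lowest in 4K in knockout, but the genotypes overlapped.

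When 2D was set aside, 10 of the 21 cytosolic genes had every knockout clone above every remaining wildtype clone, and 0 of the 17 mitochondrial genes did. Over all tested genes the share was 3.86%. These 10 were the 11 called genes without Tars. They were called in the same clones and 2D was their highest wildtype clone, so this separation is not independent support. When 2D and 3G were both left out, the 11 genes remained called and Mars was added (log2 fold change 0.25, edgeR adjusted p = 0.0326), against 3.54% of all tested genes called higher in that fit. The Sars log2 fold change was then 0.72 and that of Gars 0.57. Wildtype clones varied more than knockout clones: the coefficient of variation was larger in wildtype for 21 of 21 cytosolic genes (median 12.5% against 6.27%), for 12 of 17 mitochondrial genes and for 66.6% of all tested genes. Without 2D these figures were 18 of 21, 6 of 17 and 54.5%.

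**Figure D3:**
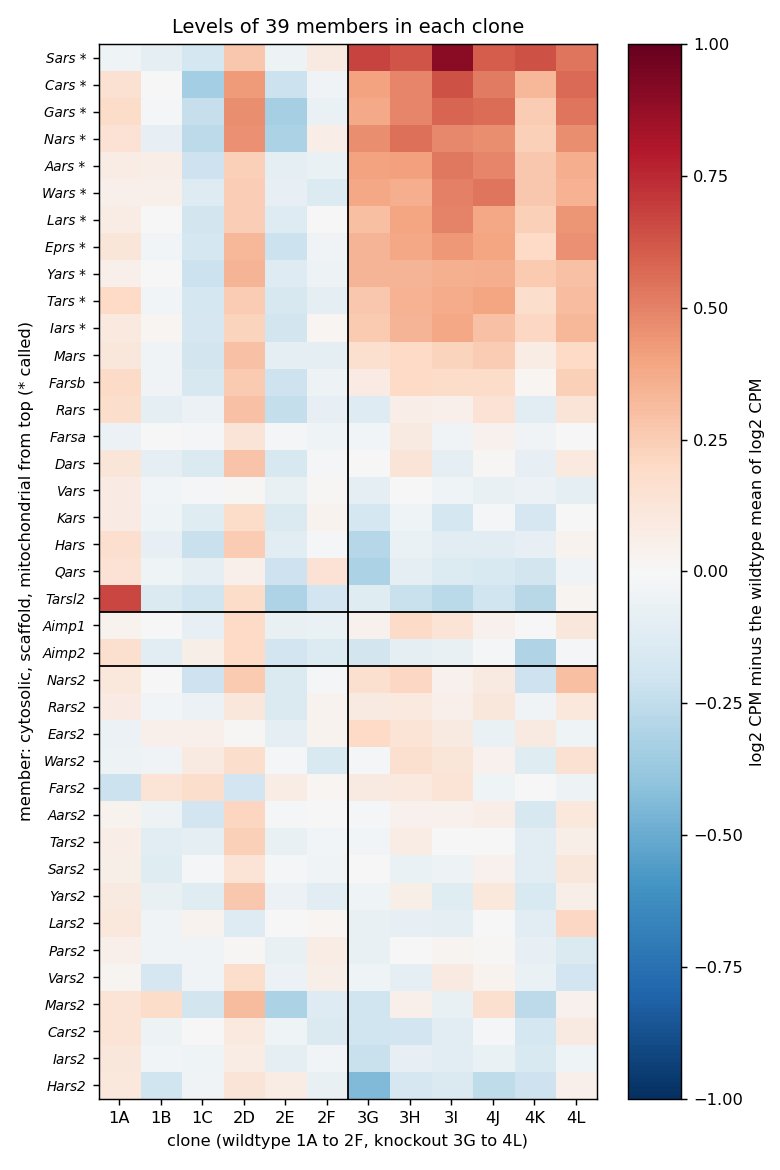
Log2 CPM of 39 of the 40 genes in each clone, minus the mean of log2 CPM over the 6 wildtype clones; red is higher and blue lower, and an asterisk marks a called gene. The 11 called cytosolic genes form a red block in the 6 knockout clones, with wildtype clone 2D red to a lesser extent and knockout clone 4K paler than its neighbours.

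The calls differed in how far they depended on single clones. Aars, Iars, Lars, Sars and Wars were called in all 12 fits that left out 1 clone. The other 6 lost the call in some fits: Cars in 4, Eprs and Yars in 7, Tars in 9, and Gars and Nars in 10, with adjusted p up to 0.0977. The number called higher was 5 without 1B, 2F, 3I or 4J, 6 without 3H, 7 without 1C, 3G or 4L, and 12 without 2D. Calls over all tested genes moved too. With all clones 472 of 11819 were higher, against 294 of 11924 without 3I and 558 of 11927 without 2D. The sign of the 11 genes held in every fit without 1 clone, and their lowest log2 fold change was 0.26. Because the meaning of the title numbers is not given, the 4 knockout-minus-wildtype pairs of title numbers (3 clones each) were also compared, in a model with 4 groups. All 11 genes had positive values in all 4 pairs, from 0.24 to 0.84, but 0 of them passed the test in all 4 pairs. Sars passed in 3 (largest adjusted p = 0.0717). Of all tested genes, 0.203% passed with the same sign in all 4. These pairs share clones and are not independent. Between title numbers within a genotype, 0% of tested genes were called by edgeR in wildtype and 0% in knockout. At an unadjusted p under 0.05 there were 416 genes in wildtype, of which 1 was a synthetase (Sars), and 244 in knockout, of which 0 were.

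The mitochondrial enzymes described here showed values close to 0 on the log2 scale, and 6 of 17 were positive. Among 16 of them the log2 fold change ran from -0.19 (Hars2) to 0.10 (Nars2), and none of these 16 was called. Iars2 (log2 fold change -0.11, adjusted p = 0.125) and Hars2 (-0.19, adjusted p = 0.174) had an unadjusted p under 0.05, and Iars2 is the isoleucyl enzyme of the mitochondrion. Hars2 and Hars lie on opposite strands with overlapping exons, so their reads cannot be told apart where they overlap.

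Whether the cytosolic enzyme moved against its mitochondrial partner was tested directly, by the log2 ratio of the counts of both genes in each clone. This ratio does not depend on library size. It uses the same counts and clones as the edgeR calls. For a pair whose cytosolic gene was called higher, it is therefore not independent support for that call. Of 18 pairs compared with an exact two-sided permutation test over the 12 clones, 13 had a higher ratio in the knockout, 0 had a lower ratio and 5 did not pass (p adjusted over the 18 pairs). The smallest p this test can give is 0.00216, which becomes 0.00557 after adjustment. In 7 pairs the genotypes did not overlap, namely those of Sars, Cars, Iars, Aars, Wars, Yars and Tars, and each of these had that adjusted p. Leaving out 1 clone at a time gave 12 or 13 pairs. All 13 had both knockout title numbers above both wildtype title numbers. So did Farsb/Fars2 and Hars/Hars2 among the 5 that did not pass. The 13 were picked on these same clones, so their order by title number is not independent support.

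The serine pair differed most, by 0.68 (log2 ratio 2.73 ± 0.12 in wildtype and 3.40 ± 0.18 in knockout, SD, n = 6; exact permutation test, adjusted p = 0.00557). Sars2 itself ranged from 25.2 to 30.2 CPM in wildtype and from 25.3 to 29.7 CPM in knockout, with medians of 27.0 CPM in both. The cysteine pair differed by 0.59, from 1.36 ± 0.23 to 1.94 ± 0.11, while Cars2 ranged from 34.3 to 41.6 CPM (median 37.3) in wildtype and from 33.0 to 40.3 CPM (median 34.3) in knockout. The isoleucine pair differed by 0.42, from 0.80 ± 0.10 to 1.22 ± 0.062. Iars2 ranged from 201 to 231 CPM (median 209.6) in wildtype and from 183 to 207 CPM (median 200.3) in knockout, so the partner stood slightly lower as the cytosolic gene stood higher.

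The alanine pair differed by 0.40, and Aars2, whose human mutations cause cardiomyopathy, ranged from 26.6 to 35.3 CPM (median 30.2) in wildtype and from 27.2 to 32.6 CPM (median 31.3) in knockout. The tryptophan pair differed by 0.34, with Wars2 at 14.1 to 17.7 CPM (median 15.4) in wildtype and 14.4 to 17.5 CPM (median 16.6) in knockout. The tyrosine pair differed by 0.34. Yars2, linked in people to a myopathy with sideroblastic anaemia, ranged from 54.4 to 71.1 CPM (median 56.4) in wildtype and from 53.1 to 63.5 CPM (median 59.4) in knockout. The threonine pair differed by 0.31, with Tars2 at 90.02 to 115 CPM (median 94.1) in wildtype and 90.2 to 103 CPM (median 97.5) in knockout. In each of these 4 pairs the ranges of the mitochondrial gene overlapped between genotypes, and the cytosolic gene was among those called higher.

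Eprs was set against the mitochondrial partners of both of its activities. Against Pars2, the prolyl enzyme (17.5 to 19.3 CPM, median 18.3, in wildtype and 16.6 to 18.7 CPM, median 17.9, in knockout), the ratio differed by 0.41 (exact permutation test, adjusted p = 0.00866). Against Ears2, the glutamyl enzyme (15.2 to 16.8 CPM, median 16.5, in wildtype and 15.5 to 18.6 CPM, median 17.2, in knockout), it differed by 0.30 (exact permutation test, adjusted p = 0.0330). The Ears2 result did not pass when 1B, 1C, 2E, 2F, 3I, 4J or 4L was left out, with adjusted p up to 0.0659. Both Eprs ratios share the Eprs counts and are not independent. The leucine pair differed by 0.40 (exact permutation test, adjusted p = 0.0142), with Lars2 at 127 to 150.0 CPM (median 140.2) in wildtype and 129 to 161 CPM (median 132) in knockout. The asparagine pair differed by 0.34 (exact permutation test, adjusted p = 0.00866), with Nars2 at 16.9 to 23.4 CPM (median 19.4) in wildtype and 16.9 to 24.0 CPM (median 21.3) in knockout. In wildtype clone 2D, Nars2 was at the 23.4 CPM end, alongside Nars.

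For methionine the ratio passed the test although the cytosolic gene was not called. The pair differed by 0.23 (exact permutation test, adjusted p = 0.0195), with Mars2 at 27.6 to 43.0 CPM (median 34.7) in wildtype and 28.8 to 38.6 CPM (median 34.1) in knockout; it did not pass without both 2D and 3G (exact permutation test, adjusted p = 0.0659). The 5 pairs that did not pass were Farsb/Fars2 (difference 0.12), Hars/Hars2 (0.092), Vars/Vars2 (-0.014), Farsa/Fars2 (-0.031) and Rars/Rars2 (-0.047). Valine, phenylalanine, histidine and arginine therefore showed no difference past the test between the compartments.

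**Figure D4:**
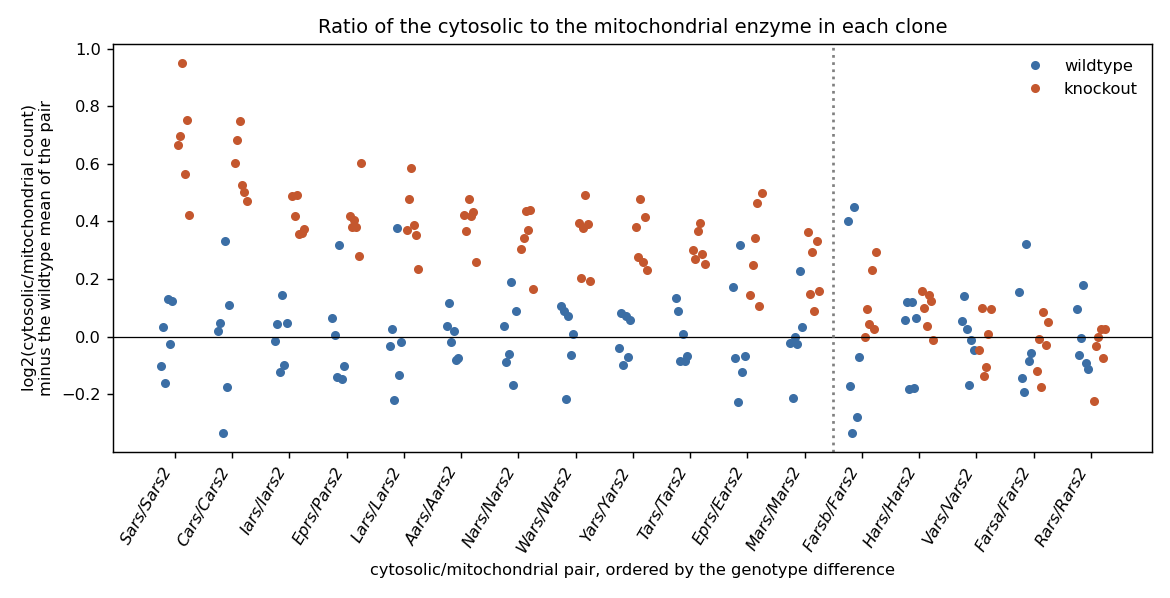
Log2 ratio of cytosolic to mitochondrial enzyme counts in each clone, minus the wildtype mean of that pair, for 17 of the 18 pairs ordered by the genotype difference; each point is a clone and the dotted line separates the 12 pairs shown that passed the test from the 5 that did not. The knockout points of the serine and cysteine pairs stand highest, with differences of 0.68 and 0.59.

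Levels of different genes were compared per kilobase of transcript, using the GENCODE transcript with the longest coding sequence. In wildtype, cytosolic enzymes had a median of 92.1 CPM per kb (9.83 to 187) and mitochondrial enzymes a median of 12.4 CPM per kb (3.09 to 40.8). The most abundant per kb were Nars (187 ± 38.4, SD, n = 6), Kars (186 ± 16.4) and Gars (179.8 ± 37.8), which did not differ beyond their spread. By the length of all merged exons the most abundant were instead Gars (137), Nars (118) and Vars (98.6), with Kars at 91.2 CPM per kb. Tarsl2 was the least abundant cytosolic gene (9.83 ± 2.83 CPM per kb; 24.5 to 48.4 CPM with median 27.1 in wildtype, highest in 1A, and 25.2 to 31.1 CPM with median 26.3 in knockout), followed by Cars (30.6 ± 5.93). The least abundant of the set were Mars2 (3.09 ± 0.526) and Wars2 (3.56 ± 0.286), whose values overlap. With merged exons the lowest were instead Wars2 (2.64), Nars2 (2.82) and Mars2 (3.09 CPM per kb). Kars ranged from 367 to 461 CPM (median 405) in wildtype and from 359 to 404 CPM (median 378) in knockout.

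In all 18 pairs the cytosolic gene stood above its mitochondrial partner per kb in wildtype, by 1.44-fold for threonine to 35.9-fold for asparagine, with a median of 7.39-fold. The cytosolic gene was also the higher in 18 of 18 pairs by the length of all merged exons, but the folds moved. Tyrosine was then lowest (1.74-fold) and threonine at 2.82-fold, asparagine was highest at 41.8-fold, and Eprs against Pars2 went from 18.6-fold to 5.12-fold. Of the 21 cytosolic genes, 19 stood above every mitochondrial gene per kb of transcript; the exceptions were Cars and Tarsl2. Pairs with a changed ratio occurred at both ends of this range. The asparagine pair had the widest gap in level, and the threonine, cysteine and tyrosine pairs (1.44-fold, 1.53-fold and 1.78-fold per kb of transcript) had the narrowest.

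**Figure D5:**
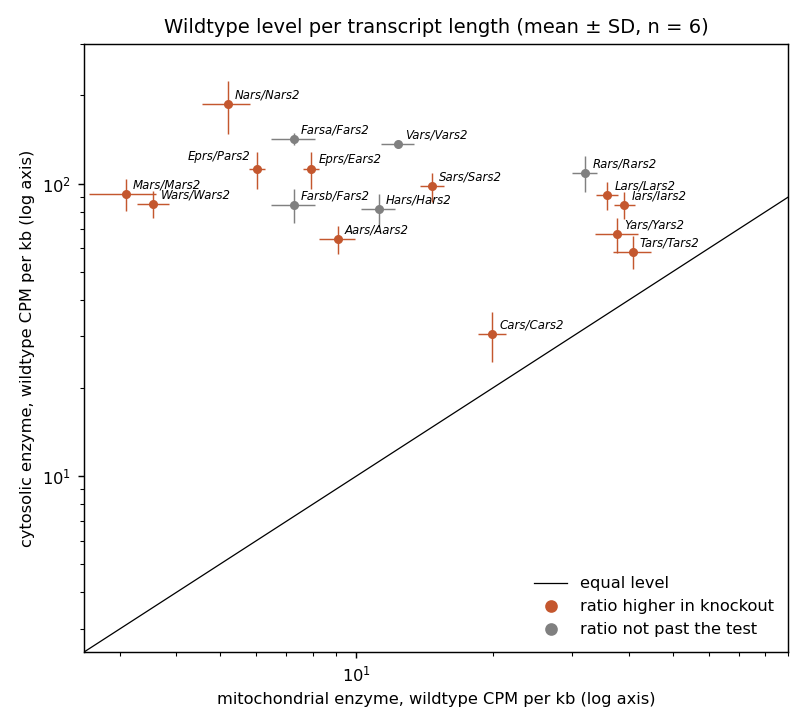
Wildtype level of each cytosolic enzyme against its mitochondrial partner in CPM per kb of transcript, on log axes, as the mean ± SD of 6 clones; orange pairs had a higher ratio in the knockout and grey pairs did not pass the test. All 17 pairs shown lie above the line of equal level, between 1.44-fold and 35.9-fold.

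Genes that act around the synthetases were examined in lists. Of 7 accessory, editing and selenocysteine genes, edgeR called 0 and DESeq2 1 (lower), with an unadjusted p under 0.05 for 2. Over all genes it tested, DESeq2 called 6.11% higher and 6.34% lower, and 23.7% had an unadjusted edgeR p under 0.05. Of 19 tested genes of tRNA maturation and export, edgeR called 0 and DESeq2 called 1 higher and 1 lower, with an unadjusted p under 0.05 for 5 (26.3%, near the 23.7% of all tested genes). A further gene of that list, Rpp25, did not pass the filter on low counts. Of 13 genes of mitochondrial charging and delivery, neither tool called any (0 and 0), and the unadjusted p was under 0.05 for 1. The medians of these lists were 0.057, -0.036 and -0.018 on the log2 scale.

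The factors that deliver charged tRNA to the cytosolic ribosome differed among themselves. Eef1a1, the elongation factor that carries the charged tRNA, ranged from 2705 to 3196 CPM in wildtype (median 2954) and from 3279 to 3677 CPM in knockout (median 3506), without overlap (log2 fold change 0.25, edgeR adjusted p = 0.00648). Its lowest wildtype value was that of 2D. Eef1b2, an exchange factor subunit, ranged from 839.5 to 959 CPM in wildtype (median 888) and from 963 to 1077 CPM in knockout (median 988), also without overlap (log2 fold change 0.17, adjusted p = 0.0221). Without 1A or without 1B it was not called (adjusted p up to 0.0577). Eef1d ranged from 217 to 297 CPM in wildtype and from 199 to 214 CPM in knockout, without overlap in the lower direction. Eef1d (log2 fold change -0.19, edgeR adjusted p = 0.115) and Eef1g (0.13, adjusted p = 0.0608) were not called by edgeR. DESeq2 called 3 of the 4 factors higher and 0 lower, against 6.11% and 6.34% of all genes it tested. Of the 3 genes that sense uncharged tRNA, edgeR and DESeq2 called 0, and the unadjusted p was under 0.05 for 0. Their log2 fold changes were -0.047 for Eif2ak4 (which encodes GCN2), 0.053 for Gcn1l1 and 0.16 for Impact.

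Transcripts of the stress response that many cytosolic synthetase genes belong to were higher as well. All 4 genes listed were called higher by edgeR, against 3.99% of all tested genes. Atf4 ranged from 312 to 596 CPM in wildtype (median 374) and from 516 to 652 CPM in knockout (median 631), with a log2 fold change of 0.57 (edgeR adjusted p = 0.0344). Its highest wildtype value was that of 2D, within the knockout range, and the second highest that of 1A (474 CPM). It lost the call in 9 of the 12 fits without 1 clone (all but those without 1A, 2D or 4K; adjusted p up to 0.0735). Ddit3 ranged from 8.12 to 13.1 CPM in wildtype (median 9.07) and from 19.9 to 29.1 CPM in knockout (median 24.8). Asns, the asparagine synthetase of metabolism rather than a tRNA enzyme, ranged from 136 to 367 CPM in wildtype (median 203) and from 375 to 504 CPM in knockout (median 460.4). Trib3, a pseudokinase that restrains ATF4, ranged from 1.78 to 23.5 CPM in wildtype (median 5.26) and from 44.5 to 75.8 CPM in knockout (median 59.9). The log2 fold changes were 1.35 for Ddit3, 1.02 for Asns and 2.97 for Trib3, all larger than that of any synthetase, and these 3 genes were called in all 12 fits without 1 clone. Their highest wildtype value was in each case that of 2D. Earlier results of these data already showed this response higher in the knockout, so it is not independent support.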

How the data were processed

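Each clone had its own deposited file, which held the authors' raw counts per Ensembl gene. The submitters' processing notes name STAR, HTSeq, edgeR and the build mm9, without versions, and the file names say that strand was ignored. HTSeq totals that name no gene (48.1% to 49.9% of records per clone, mostly multiply aligned) were left out. Symbols came from GENCODE M21 for 32860 of 37583 identifiers. That release is of a later build, so no coordinates from it are printed; transcript lengths and exon overlaps rest on its gene models.

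Counts of all 12 clones were tested in edgeR 4.0.16 (R 4.3.3) by the quasi-likelihood test, after TMM scaling and a filterByExpr step on genotype. P-values were adjusted by Benjamini-Hochberg across the 11819 genes that passed. The SE of a log2 fold change is its size over the square root of F. Per-clone CPM used TMM-scaled library sizes. Ratios used log2 counts with 2 added to each, and an exact permutation test over the 924 assignments of clones. A gene's limit for a count of 0, 3 counts, was 0.109 to 0.158 CPM and covers counting error only; a synthetase had 295 to 17331 counts per clone. Tests were tried on simulated data. Alternatives were DESeq2 1.42.0, other scalings, no filter, sums by title number and leaving out clones.

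Members and lists were chosen with earlier results of these data known. Any gene of the set could be named, with per-group values for called genes, extremes of level and pairs whose ratio differed; context genes were named where called or where their list had at most 4. A member of the set enters the counts but is not reported here.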

Additional observations from a re-analysis of the deposited data

Results flagged for a closer look

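In 4 of 80 gene and genotype groups of 6 clones, the highest or lowest clone stood apart from the other 5 by Dixon's criterion for the gap over the range; chance alone gives about 1 in 20 groups. Farsa, a subunit of the phenylalanyl enzyme, was 284.9 CPM in wildtype clone 2D, against 249.8 to 259 CPM in the other wildtype clones. Sars was 339 CPM in knockout clone 3I, against 264 to 289.7 CPM in the other knockout clones; its call held without 3I. Nars was 594 CPM in knockout clone 4K, below the 694 to 737 CPM of the others. The mitochondrial gene Lars2 was 161 CPM in knockout clone 4L, against 129 to 139 CPM in the others.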

How the results depend on the processing

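The 11 higher and 1 lower synthetase genes were unchanged in number with RLE size factors, with library totals alone and with DESeq2. Without a filter on low counts, and with counts summed by title number, 8 cytosolic genes were higher and the lower count was 0. Over all genes, 271 of 22586 were higher without a filter and 158 of 13800 with sums, against 472 of 11819 in the main fit. Of the 11 higher synthetase calls, the filter-free fit lost Gars, Nars and Tars (adjusted p 0.0627 to 0.0797). The summed fit lost Nars, Sars and Yars (adjusted p 0.0529 to 0.0580). Counting only genes that passed in each of the 4 title-number pairs gave 0 higher and 0 lower. Leaving out 1 clone gave 5 to 12 higher, all cytosolic, and 0 to 1 lower, mitochondrial. Over all tested genes these fits gave 294 to 558 higher and 272 to 535 lower. An alternative chosen after seeing the data, without 2D and 3G, gave 12 higher and 0 lower. The cause of the lost calls was not tested. No paired analysis was possible because the clone titles share no numbers between genotypes.

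Only uncalled values near 0 changed sign. Without a filter the log2 fold change of Dars was -0.0048 and of Farsa -0.0028, and summed by title number that of Tars2 was 0.00041. Without 2D and 3G, Fars2 was at -0.015, Mars2 at 0.043, Sars2 at 0.014, Tars2 at 0.054 and Yars2 at 0.046, and the ratio differences of Farsa/Fars2 and Rars/Rars2 were 0.050 and 0.024. Leaving out 1 clone, the log2 fold change ran from -0.022 to 0.060 for Aars2, -0.032 to 0.066 for Dars, -0.012 to 0.068 for Fars2, -0.0089 to 0.035 for Farsa and -0.12 to 0.014 for Mars2. It ran from -0.030 to 0.084 for Rars, -0.038 to 0.020 for Sars2, -0.031 to 0.049 for Tars2 and -0.046 to 0.041 for Yars2. The ratio differences ran from -0.047 to 0.015 for Vars/Vars2 and from -0.070 to 0.033 for Farsa/Fars2.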
